A study of Mus musculus with 2 samples.

Results

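The 10 genes described here encode the 4 Janus kinases (*Jak1*, *Jak2*, *Jak3* and *Tyk2*), 5 of the STAT transcription factors they phosphorylate (*Stat3*, *Stat4*, *Stat5a*, *Stat5b* and *Stat6*) and the alpha chain of the IL-4 receptor (*Il4ra*). They were chosen by name, with earlier results of these data known, and all 10 were present among the 17232 genes of the deposited table. The table holds scRNAseq of tumor-infiltrating immune cells (TIIs), purified by sorting as DAPI-CD45.2+ cells from B16-OVA tumors 14 days into tumor growth (day 14). The B16-OVA tumors grow from a melanoma line of the mouse, engineered to express ovalbumin as a model antigen. One group of hosts was *Maoa* WT, and the other, denoted *Maoa* KO, carried a hypomorphic mutant of *Maoa* (129S-Maoa tm1Shih/J, backcrossed to C57BL/6J for more than 9 generations) in immune and non-immune cells alike. The mice were females of 8 to 12 weeks of age unless the study states otherwise. Since 10 tumors were combined for each genotype and made into 1 library, neither genotype has a replicate. No test between the libraries was possible, and every interval below is a 95% interval that covers counting error only.

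The library labelled WT held 2392 cells at a median of 9887.5 UMIs (unique molecular identifiers, each of which stands for 1 captured RNA molecule), and the library labelled KO held 2630 cells at a median of 6945.5 UMIs. Levels are given as UMIs of a gene per 1000000 UMIs of the same cells (CPM), with exact Poisson intervals. *Maoa* was counted 7 times in the library labelled WT and 15 times in the library labelled KO (0.24 and 0.63 CPM). The log2 ratio of the library labelled KO over the other was 1.33 (-0.00095 to 2.92). This interval holds 0, so counts this low do not check the labels. Where the mutation lies relative to the 3′ tag that is counted is not given in the sources used here, so each library is called by its label. Cells clustered without the 10 genes fell into 15 clusters. These gave the classes T cells (921 cells in the library labelled WT and 874 in the library labelled KO), NK (natural killer) cells (186 and 267), tumor-associated macrophages and monocytes (TAM/Mono, 970 and 832), dendritic cells (DC, 140 and 320), plasmacytoid dendritic cells (pDC, 48 and 70) and B cells (7 and 24). A further cluster of 120 and 243 cells, cluster 7, had all 9 T cell markers of the table detected but held 1 NK cell marker (*Klra7*) and no T cell marker among its 10 leading genes, and it is kept by number. The classes matched their labels as immune cells: the summed T cell markers stood at 4874 and 4859 CPM in T cells against 322 and 214 CPM in TAM/Mono, and the summed macrophage markers at 9237 and 9882 CPM in TAM/Mono against 276 and 266 CPM in T cells. The T cell class also held melanoma markers (105 and 169.5 CPM) and hemoglobin genes (1361 and 2468 CPM). The summed neutrophil markers differed between the libraries, at 218 and 44.3 CPM in T cells and 567 and 213 CPM in TAM/Mono, and their part in the results was not tested.

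Janus kinases sit on the tails of cytokine receptors that lack a kinase of their own. When a cytokine joins its receptor chains, the kinases phosphorylate each other, the receptor and then the STAT proteins, which pair up, enter the nucleus and bind DNA. IL-4 uses the IL-4 receptor alpha chain together with the common gamma chain (*Il2rg*), which carries JAK3, or with the IL-13 receptor alpha chain (*Il13ra1*), which also receives IL-13 and carries TYK2 or JAK2. The alpha chain itself carries JAK1 and recruits STAT6, the factor known for the alternative activation of macrophages. STAT4 is known as the factor downstream of IL-12 in lymphocytes, STAT3 as that of IL-6 and IL-10, and the near twins STAT5A and STAT5B as those of IL-2, IL-7, IL-15 and GM-CSF. The study asked whether MAO-A acts on the phosphorylation of JAK and STAT6 proteins in macrophages. The values here count mRNA and do not read phosphorylation.

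In GRCm38 (GENCODE M21), *Jak1* lies on chr4:101152367-101265282, *Jak2* on chr19:29251828-29313080, *Jak3* on chr8:71676296-71690575, *Tyk2* on chr9:21104068-21131243, *Stat6* on chr10:127642986-127660957 and *Il4ra* on chr7:125552120-125579474. *Stat5b* (chr11:100780731-100850724), *Stat5a* (chr11:100859351-100885169) and *Stat3* (chr11:100885098-100939540) stand side by side, and *Stat4* lies on chr1:51987148-52107189. *Stat3* and *Stat5a* overlap by their last 72 bases on opposite strands. The counts of *Jak3* and *Stat4* may be affected by genes that overlap on the same strand. For *Jak3*, 404 of the last 500 bases of the transcript are also found in *Insl3*. For *Stat4*, 50 of the last 500 bases are found in *Gm28177*, a shorter stretch. Reads that lie within such a stretch may not be given to 1 gene, and the effect on the counts was not tested. Neither *Insl3* nor *Gm28177* is a row of the table.

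Promoters are shown for the member with the most uneven level over clusters (*Stat4*), the member with the most even level (*Stat5b*) and the receptor chain (*Il4ra*). Each line gives the stretch of the first promoter window from RefSeq (GRCm38.p6) that lies before the transcripts of both RefSeq and GENCODE (250, 107 and 99 bases), written 5′ to 3′ on the gene's own strand, with CG pairs in capitals.
*Stat4* promoter, chr1:51986898-51987147, + strand: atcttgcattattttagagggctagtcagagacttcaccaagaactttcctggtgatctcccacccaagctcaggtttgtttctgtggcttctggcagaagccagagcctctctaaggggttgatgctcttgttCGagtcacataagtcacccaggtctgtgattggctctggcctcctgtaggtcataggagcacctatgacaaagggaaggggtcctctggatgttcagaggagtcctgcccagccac
*Stat5b* promoter, chr11:100850725-100850831, - strand: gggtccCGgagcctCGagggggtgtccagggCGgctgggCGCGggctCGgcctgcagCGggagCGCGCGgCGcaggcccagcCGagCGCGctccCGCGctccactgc
*Il4ra* promoter, chr7:125552021-125552119, + strand: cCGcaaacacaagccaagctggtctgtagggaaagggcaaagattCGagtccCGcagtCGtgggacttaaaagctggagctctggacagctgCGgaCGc
In the full window of 300 bases (250 before and 50 after the start), the first *Stat4* promoter held 2 CG pairs, the first *Stat5b* promoter 50 and the *Il4ra* promoter 25, against a median of 7 and quartiles of 3 and 20 over all 32851 promoters. The CG content did not follow evenness over all members. *Jak2*, with 44 CG pairs, was the second most uneven gene, and *Stat6*, with 8, was the second most even. STAT proteins are known to bind TTCNNNGAA, and STAT6 also the form with a spacer of 4 bases, TTCNNNNGAA. These letters read the same on both strands, and neither form was found in any of the 13 annotated promoters of the 10 members. The forms were found in 8.30% and 6.95% of all promoters of that length. No match says only that these letters are not in this window.

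The IL-4 receptor alpha chain was counted at its highest level in TAM/Mono in both libraries. *Il4ra* stood at 96.0 CPM (interval 90.5 to 102, 1151 UMIs) in TAM/Mono of the library labelled WT and at 85.1 CPM (79.1 to 91.3, 762 UMIs) in the library labelled KO. In T cells it stood at 24.1 CPM (21.4 to 26.9) and 37.7 CPM (33.4 to 42.5), so the TAM/Mono level was 3.99-fold and 2.25-fold that of T cells. The log2 ratios of TAM/Mono over T cells were 1.997 (1.81 to 2.19) and 1.17 (0.97 to 1.38), and their intervals do not overlap. DC held 66.8 and 56.0 CPM, pDC 78.1 and 45.6 CPM, cluster 7 48.6 and 57.6 CPM, and NK cells 35.1 and 35.9 CPM. In the order of these 6 classes, 4 of 5 neighbouring pairs in each library could not be set apart, since the interval of their ratio held 0. The pair that could be set apart was NK cells over T cells in the library labelled WT and TAM/Mono over cluster 7 in the library labelled KO. The B cell class held 0 and 3 *Il4ra* UMIs, too few to place it.

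Transcripts of macrophages were found in the T cell class at a few percent of their TAM/Mono level, while *Il4ra* was found there at a higher share. The T cell class held *Lyz2*, a lysozyme of myeloid cells, at 2.17% and 2.14% of its TAM/Mono level and *Csf1r* at 3.22% and 3.03%, whereas it held *Il4ra* at 25.1% and 44.4% and *Stat6* at 57.0% and 57.3%. With every cell thinned to 3000 UMIs, 7.93% (6.26 to 9.86) and 13.04% (10.9 to 15.5) of T cells and 24.9% (22.3 to 27.8) and 20.6% (17.9 to 23.5) of TAM/Mono cells held an *Il4ra* UMI. No cell of the library labelled WT and 15 T cells and 2 TAM/Mono cells of the library labelled KO were left out as too shallow. Without thinning the shares were 24.3% and 26.3% in T cells, at medians of 11101 and 5285 UMIs per cell, and 58.2% and 46.4% in TAM/Mono.

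Within T cells, *Il4ra* followed the cluster. Cluster 1, whose leading genes *Dapl1*, *Lef1* and *Tcf7* mark naive-like T cells, held 61.8 CPM in the library labelled WT and 74.9 CPM in the library labelled KO. Cluster 2, led by *Cxcr6*, *Prf1*, *Lag3* and *Pdcd1*, held 19.4 and 22.3 CPM, and the cycling cluster 5 held 18.9 and 17.4 CPM. Cluster 9, regulatory T-like by *Foxp3*, *Ctla4* and *Ikzf2*, lay between them at 41.6 and 32.2 CPM. The order of the 4 clusters was the same in both libraries. Within TAM/Mono the 4 clusters lay closer together: cluster 0 (led by *Dmkn*, *Vcan* and *Il1b*) held 105 and 86.5 CPM, cluster 6 (*Serpinb10*, *Hp* and *Ace*) 107 and 70.2 CPM, cluster 3 (*Cxcl3*, *Inhba* and *Thbs1*) 88.6 and 70.6 CPM, and cluster 10 (*Ccl8*, *Gas6* and *C1qa*) 89.7 and 99.4 CPM. The highest of the 4 was cluster 6 in one library and cluster 10 in the other.

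*Stat6* showed a flatter pattern than the receptor chain above it. It stood at 54.8 CPM (50.7 to 59.2, 657 UMIs) and 55.8 CPM (51.0 to 60.9, 500 UMIs) in TAM/Mono and at 31.2 CPM (28.2 to 34.5) and 32.0 CPM (28.0 to 36.4) in T cells, a log2 difference of 0.81 (0.63 to 0.997) and 0.80 (0.58 to 1.03). NK cells held 42.1 and 49.7 CPM and DC 48.3 and 42.1 CPM, and pDC had the lowest level in both libraries, 29.6 and 19.8 CPM from 11 and 10 UMIs. Over the 13 clusters with at least 50 cells, *Stat6* ran from 27.7 to 69.3 CPM in the library labelled WT and from 19.8 to 60.7 CPM in the library labelled KO. Its standard deviation over these clusters on the log2(CPM + 10) scale was 0.36, against 0.63 for *Il4ra* and 1.27 for *Stat4*. STAT6 transcripts were thus present in every class large enough to read.

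The partner chains divided the classes more sharply. *Il13ra1*, the chain that completes the receptor for IL-13, stood at 65.3 and 55.7 CPM in TAM/Mono and 35.5 and 27.9 CPM in DC but at 1.61 and 1.78 CPM in T cells. The T cell values are 2.46% and 3.19% of the TAM/Mono level, close to the shares of *Lyz2* and *Csf1r* there. Within TAM/Mono the *C1qa*-led cluster 10 was the exception, with 13.8 and 18.4 CPM of *Il13ra1* against 57.1 to 88.1 CPM in the other clusters and libraries. *Il2rg*, the common gamma chain, had the opposite order: 184 and 221 CPM in T cells, 271 and 336 CPM in NK cells and 77.4 and 91.4 CPM in TAM/Mono. The ligands were almost not counted. *Il4* had 2 and 3 UMIs and *Il13* had 5 and 6 UMIs in all cells, which were sorted as CD45.2+.

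**Figure D1:**
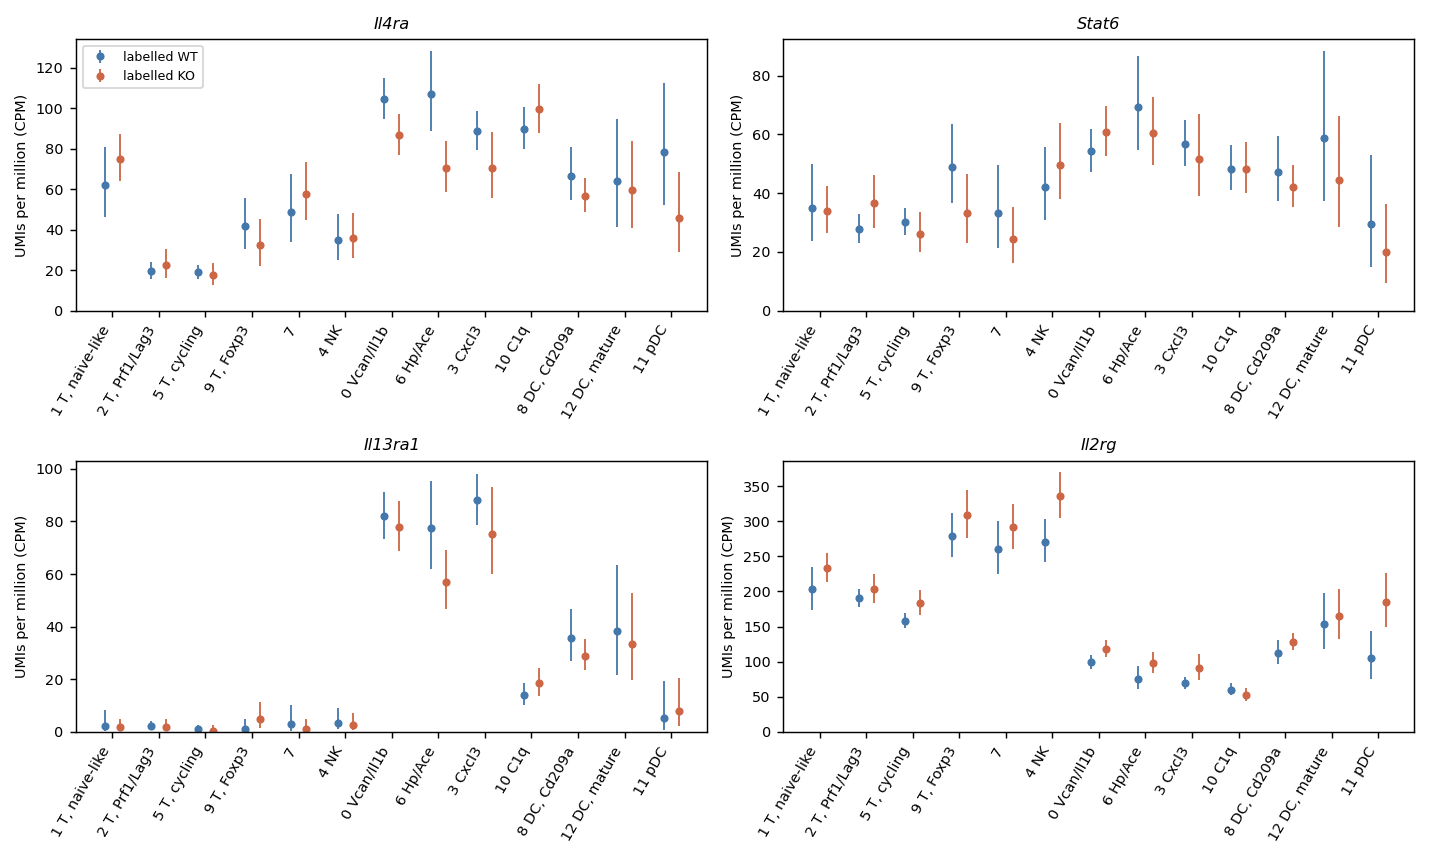
Level of Il4ra, Stat6, Il13ra1 and Il2rg in the 13 clusters with at least 50 cells, in CPM (linear axis from 0). Points are the library labelled WT (blue) and the library labelled KO (orange), and bars are 95% Poisson intervals. Il13ra1 is near 0 in the T cell and NK cell clusters and lower in cluster 10 (13.8 and 18.4 CPM) than in the other TAM/Mono clusters, whereas Il2rg is highest in the Foxp3-led cluster 9, cluster 7 and the NK cell cluster 4.

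Among the kinases, *Jak1*, which serves most of these receptors, followed a fixed order of classes in both libraries. It was highest in NK cells (294 and 296 CPM), followed by cluster 7 (244 and 217 CPM), T cells (148 and 164 CPM), TAM/Mono (97.1 and 103 CPM), DC (76.8 and 78.1 CPM) and pDC (53.9 and 67.4 CPM). *Jak1* was the only member with the same order of all 6 classes in both libraries, and in each library only the last pair, DC and pDC, could not be set apart. *Jak1* transcripts were thus 5.46-fold and 4.39-fold higher in NK cells than in pDC.

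*Jak2*, the kinase of the GM-CSF, interferon gamma and IL-12 receptors, was highest in DC. It stood at 71.1 CPM (60.1 to 83.4, 150 UMIs) and 54.4 CPM (47.8 to 61.8, 242 UMIs) there and at 12.3 and 12.2 CPM in T cells, the lowest class. Within DC it was concentrated in cluster 12, which is led by *Fscn1*, *Ccl22* and *Ccr7* and holds mature DC-like cells. That cluster had 143 and 128 CPM from 29 and 45 cells, and the *Cd209a*-led cluster 8 had 57.6 and 45.1 CPM. No other cluster with at least 50 cells was above 26.4 CPM in either library.

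*Jak3*, the kinase of the common gamma chain, was highest in T cells, at 37.7 CPM (34.4 to 41.3, 469 UMIs) and 25.4 CPM (21.9 to 29.4, 186 UMIs), and lowest in TAM/Mono, at 12.01 and 8.71 CPM. Its lowest cluster was the *C1qa*-led cluster 10, with 7.53 and 4.52 CPM, and its highest was the *Foxp3*-led cluster 9, with 42.5 and 44.9 CPM. *Jak3* and *Il4ra* ran in opposite order over the 13 clusters (Pearson's r = -0.86 on log2(CPM + 10)). The points share the libraries, and this value is a description. *Tyk2*, which serves the type I interferon, IL-12 and IL-10 receptors, was highest in DC (36.0 and 34.2 CPM) and lowest in TAM/Mono (12.01 and 15.5 CPM). No pair of neighbouring classes could be set apart for *Jak3* or for *Tyk2* in either library.

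**Figure D2:**
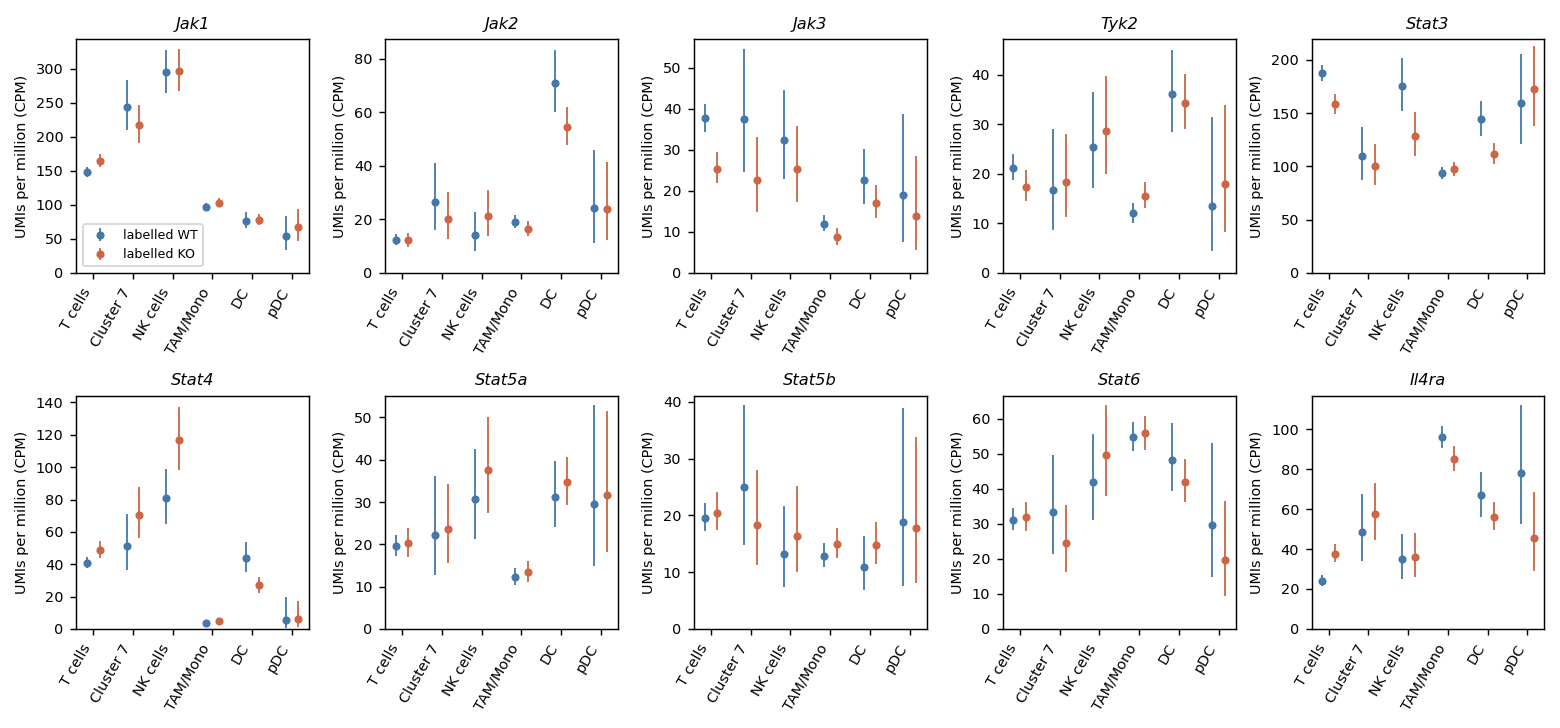
Level of each of the 10 members in 6 classes, in CPM (linear axis from 0, a scale of its own for each gene). Points are the library labelled WT (blue) and the library labelled KO (orange), and bars are 95% Poisson intervals. Stat4 is near 0 in TAM/Mono (3.503 and 4.69 CPM), Il4ra is highest there, Jak1 is highest in NK cells and Jak2 in DC.

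*Stat4* was the most restricted member. NK cells held 80.6 CPM (65.0 to 98.9, 92 UMIs) and 117 CPM (98.3 to 137, 143 UMIs), T cells 41.0 and 48.9 CPM, and TAM/Mono 3.503 CPM (2.52 to 4.73) and 4.69 CPM (3.38 to 6.34) from 42 UMIs in each library. The NK cell level was 23.0-fold and 24.9-fold that of TAM/Mono. The TAM/Mono class held *Stat4* at 8.54% and 9.58% of the T cell level, whereas *Cd3d*, *Cd3e* and *Cd3g*, parts of the T cell receptor complex that macrophages do not make, stood at 5.14% to 7.02% and 3.41% to 4.57% of theirs. With every cell thinned to 3000 UMIs, 1.13% (0.57 to 2.02) and 1.69% (0.93 to 2.81) of TAM/Mono cells held a *Stat4* UMI, against 13.6% and 15.1% of T cells. The *Stat4* share was thus above that of each *Cd3* gene in both libraries. The part of lymphocyte RNA in the TAM/Mono value of *Stat4* was not tested.

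Among DC, *Stat4* was concentrated in the mature DC-like cluster 12 as well. It stood there at 184 CPM (72 UMIs) and 128 CPM (69 UMIs), the highest level of any cluster with at least 50 cells in both libraries, against 12.2 and 11.9 CPM in the *Cd209a*-led cluster 8. A *Stat4* UMI was found in 65.5% and 60% of the cells of cluster 12 and in 13.6% and 13.7% of the cells of cluster 8, at similar depth in the library labelled WT (medians of 13419 and 13757 UMIs). Cluster 12 was also the highest cluster for *Stat3* (359 and 327 CPM), *Stat5a* (82.0 and 96.5 CPM) and *Jak2* in both libraries. Cluster 2, the *Prf1*- and *Lag3*-led T cell cluster, followed for *Stat3* with 229 and 213 CPM. For *Stat5a* the NK cells followed with 30.7 and 37.5 CPM.

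**Figure D3:**
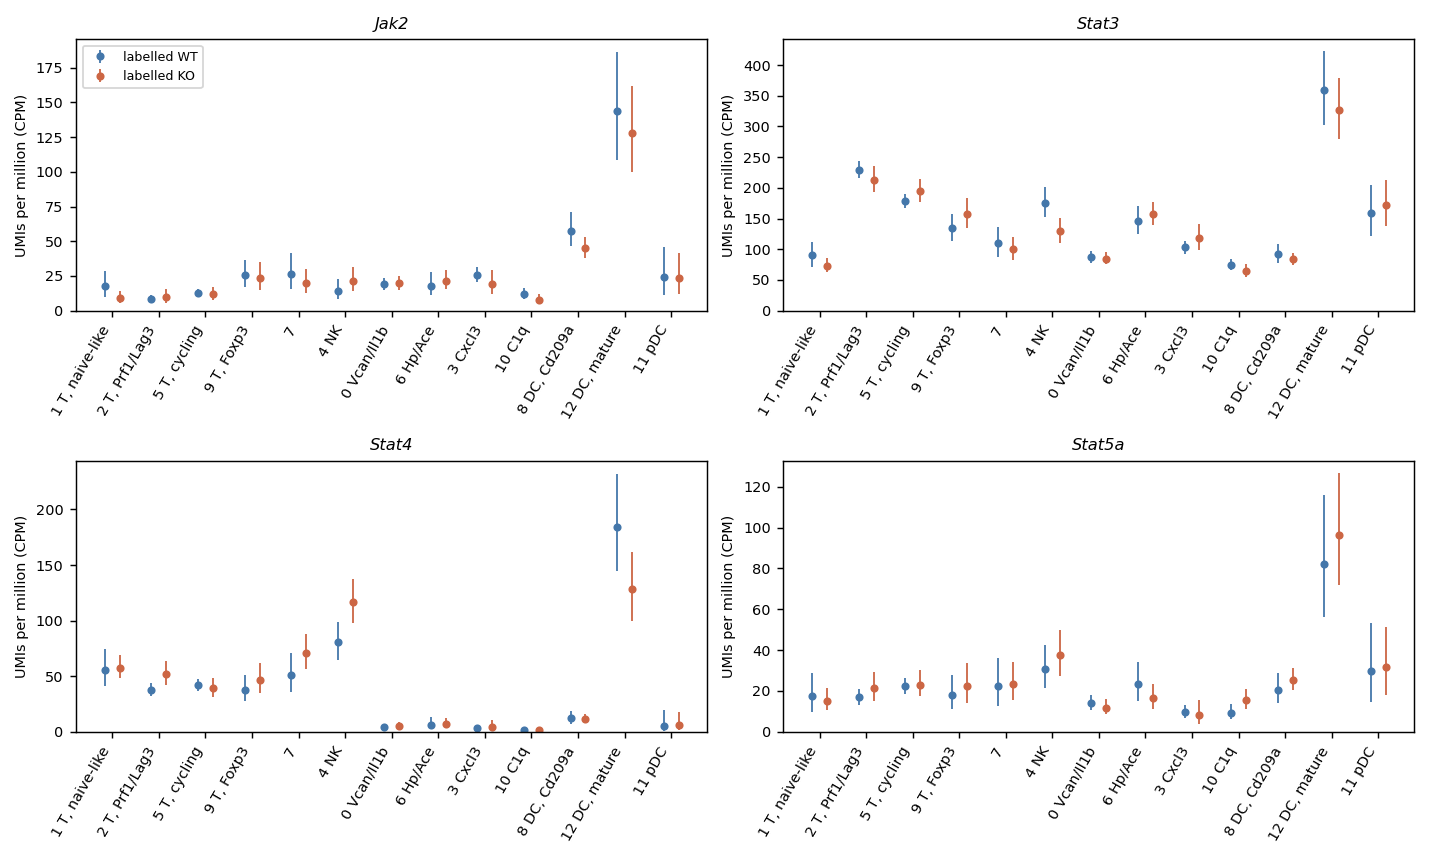
Level of Jak2, Stat3, Stat4 and Stat5a in the 13 clusters with at least 50 cells, in CPM (linear axis from 0). Points are the library labelled WT (blue) and the library labelled KO (orange), and bars are 95% Poisson intervals. The mature DC-like cluster 12 is highest for all 4 genes in both libraries (Stat4 at 184 and 128 CPM), from 29 and 45 cells.

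*Stat3* was counted in all classes with little spread between them: 187 and 158 CPM in T cells, 175 and 129 CPM in NK cells, 159 and 172 CPM in pDC, 144 and 112 CPM in DC and 93.9 and 97.7 CPM in TAM/Mono. Its highest class stood at 1.99-fold and 1.76-fold its lowest, TAM/Mono, in the libraries labelled WT and KO. Within T cells the naive-like cluster 1 held *Stat3* at 89.8 and 73.1 CPM against 229 and 213 CPM in cluster 2 and 178 and 195 CPM in the cycling cluster 5. *Il4ra* was highest in cluster 1 of these 3 clusters. Within TAM/Mono the *Hp*- and *Ace*-led cluster 6 was highest (146 and 157 CPM) and the *C1qa*-led cluster 10 lowest (74.7 and 64.8 CPM).

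The twins *Stat5a* and *Stat5b*, whose genes lie 8626 bases apart, were not alike over clusters. *Stat5a* was lowest in TAM/Mono (12.3 and 13.4 CPM) and highest in DC in one library (31.3 CPM) and in NK cells in the other (37.5 CPM), 2 classes that could not be set apart. *Stat5b* was the most even member, with a standard deviation of 0.30 over clusters against 0.60 for *Stat5a*. It ran from 10.9 CPM in DC to 24.97 CPM in cluster 7 in the library labelled WT. In the library labelled KO it ran from 14.8 CPM in DC to 20.5 CPM in T cells. No neighbouring pair of classes could be set apart, but TAM/Mono and T cells, further apart in the order, could be. The log2 ratio of TAM/Mono over T cells was -0.60 (-0.90 to -0.30) and -0.45 (-0.80 to -0.11). The last 500 bases of neither transcript matched another gene over 90 bases or more at 95% identity. In cluster 12 *Stat5a* stood at 82.0 and 96.5 CPM and *Stat5b* at 17.9 and 27.8 CPM.

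Many positive cells held a single molecule of these genes, although for *Jak1* in both libraries and *Stat3* in the library labelled WT most held more. Among cells with a UMI of the gene, exactly 1 UMI was found in 86.8% and 86.4% for *Stat5b*, 70.2% and 74.0% for *Stat6*, 42.3% and 53.1% for *Stat3* and 40.7% and 49.5% for *Jak1*. A cell without a UMI therefore says little, and sums over cells are used throughout. Over the 10 members, 9 had the same lowest class and 7 the same highest class in both libraries.

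By the Pearson correlation of log2(CPM + 10) over the 13 clusters, with both libraries summed, each member was set against 4954 other genes with at least 1000 UMIs. The genes most like *Il4ra* were *Nfe2l2* (r = 0.94), *Jun* (0.87) and *Mbnl2* (0.86), those most like *Stat6* were *Zfand3* (0.91), *Dusp1* (0.91) and *Metrnl* (0.90), and those most like *Stat4* were *Ccl5* (0.92), *4930523C07Rik* (0.91) and *Nae1* (0.91). The closest gene was *Vps37b* for *Jak1* (0.97), *Ccl17* for *Jak2* (0.93), *Tnfrsf18* for *Jak3* (0.96), *Ccdc88b* for *Tyk2* (0.87), *Samsn1* for *Stat3* (0.93), *Ktn1* for *Stat5a* (0.94) and *Cyld* for *Stat5b* (0.85). Among the members themselves the closest pairs were *Jak2* with *Stat5a* (0.76), *Jak3* with *Stat4* (0.74) and *Stat3* with *Stat5a* (0.73). These are descriptions over clusters that share both libraries.

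The libraries were then compared within each class. A gene is called past the fold where its level in the library labelled KO is at least 1.5-fold higher or lower than in the library labelled WT, counting only genes that reach 100 UMIs in the class when both libraries are summed. In T cells 1 of 10 members was past the fold higher (*Il4ra*) and 0 lower, while 4.45% of all 8337 genes were past it higher and 5.35% lower. *Jak3* in T cells, with a log2 ratio of -0.57, lay close to the cut, which is 0.585 in either direction. In TAM/Mono 0 of the 9 members with enough UMIs were past the fold in either direction, beside 4.13% of genes higher and 4.85% lower. In NK cells 0 of 4 members were, beside 3.17% higher and 3.99% lower, and in DC 1 of 9 members was past it lower (*Stat4*) and 0 higher, beside 6.61% of genes lower and 2.62% higher. The median log2 ratio of the members that had enough UMIs was 0.04 in T cells, 0.12 in NK cells, 0.06 in TAM/Mono and -0.26 in DC, beside -0.06, 0.005, 0.05 and -0.08 for all genes. The interval left out 0 for 5 of 10 members in T cells, 2 of 4 in NK cells, 3 of 9 in TAM/Mono and 3 of 9 in DC, beside 38.8%, 20.98%, 37.7% and 27.3% of all genes.

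**Figure D4:**
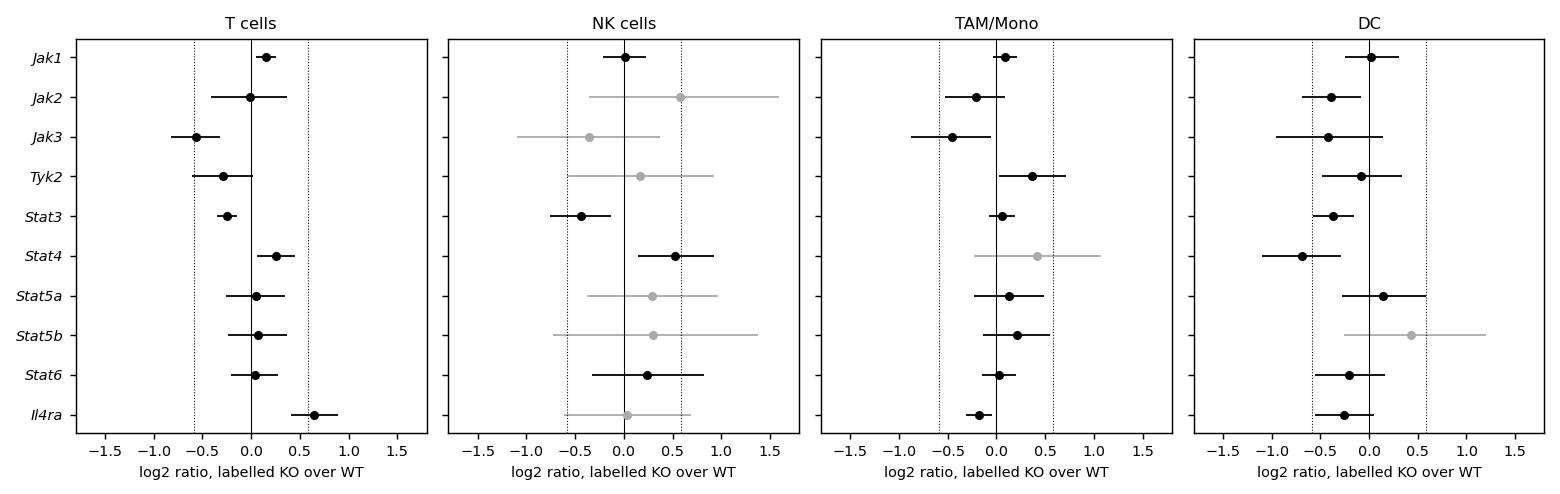
Log2 ratio of the level in the library labelled KO over that in the library labelled WT for each member in 4 classes. Points are the ratios, bars their 95% intervals (counting error only), the solid line is 0, dotted lines mark 1.5-fold and grey marks members under 100 UMIs in the class. Il4ra in T cells (0.65) and Stat4 in DC (-0.69) are the members past the fold with at least 100 UMIs.

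In TAM/Mono, the class nearest to the macrophages in which the study followed JAK and STAT6 proteins, no member was past the fold, although several intervals left out 0. The log2 ratio was 0.03 (-0.14 to 0.20) for *Stat6*, 0.09 (-0.04 to 0.21) for *Jak1*, -0.21 (-0.53 to 0.09) for *Jak2* and -0.46 (-0.88 to -0.06) for *Jak3*. For *Tyk2* it was 0.37 (0.02 to 0.72) and for *Il4ra* -0.17 (-0.31 to -0.04). Of the partner chains, *Il2rg* gave 0.24 (0.10 to 0.38) and *Il13ra1* -0.23 (-0.39 to -0.07). The intervals of *Stat6* and *Jak1* leave out a change of 1.5-fold in either direction, while those of *Jak3* and *Tyk2* do not. In TAM/Mono gated by markers *Tyk2* was past the fold (0.92), *Il4ra* gave -0.42 and *Jak3* gave -0.04. That gate asked for at least 10 UMIs of *Lyz2*, *C1qa*, *C1qb*, *C1qc*, *Csf1r* and *Cd68* together. It also asked for no UMI of *Cd3d*, *Cd3e*, *Cd3g*, *Ncr1*, *Klrb1c* or *Klre1*, and gave 369 and 438 cells in place of 970 and 832. Within TAM/Mono the lower *Il4ra* of the library labelled KO was found in 3 of 4 clusters, with an interval that left out 0 in cluster 0 (-0.27, -0.49 to -0.05) and cluster 6 (-0.61, -0.98 to -0.24). The exception was the *C1qa*-led cluster 10, at 0.15. *Stat5a* (0.13) and *Stat5b* (0.21) had intervals that held 0.

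*Il4ra* in T cells gave the highest ratio among members with at least 100 UMIs, 0.65 (0.41 to 0.89) on the log2 scale, from 299 UMIs in the library labelled WT and 276 in the library labelled KO. The make-up of the class moved with this value, and its part in it was not tested. The naive-like cluster 1, in which *Il4ra* is high, held 153 of 921 T cells (16.6%) and 6.90% of T cell UMIs in the library labelled WT and 411 of 874 T cells (47.0%) and 29.6% of T cell UMIs in the library labelled KO. Within the single clusters the log2 ratios were 0.27, 0.21, -0.10 and -0.36 in clusters 1, 2, 5 and 9, each with an interval that held 0. With both libraries set to the same mix of clusters the log2 ratio was 0.07. In T cells gated by markers (552 and 760 cells in place of 921 and 874) it was 0.34. *Il7r*, the IL-7 receptor, likewise stood higher in T cells of the library labelled KO (42.9 and 79.7 CPM, log2 ratio 0.89).

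**Figure D5:**
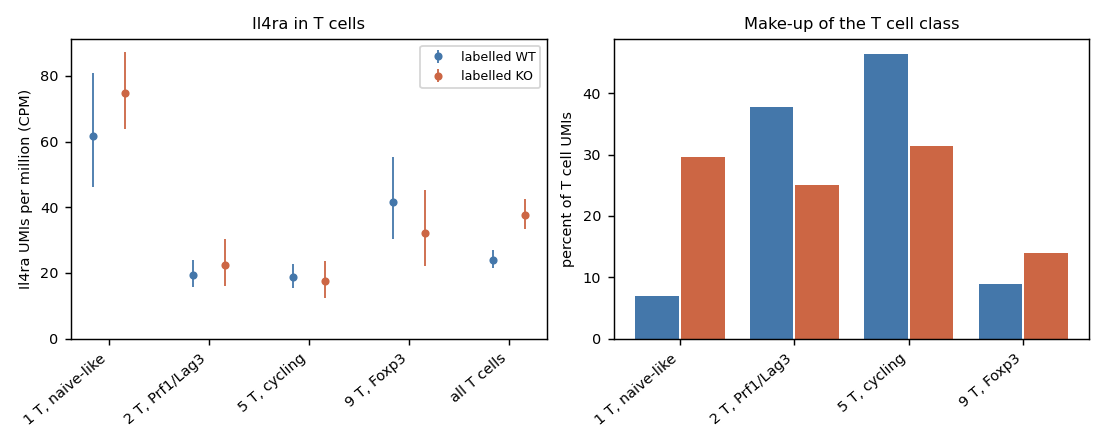
Left, level of Il4ra (CPM, linear axis from 0, with 95% Poisson intervals) in the 4 T cell clusters and in all T cells of the library labelled WT (blue) and the library labelled KO (orange). Right, percent of T cell UMIs that each cluster holds in each library. Within each cluster the intervals of the libraries overlap, while the naive-like cluster 1 holds 6.90% of the UMIs in one library and 29.6% in the other.

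*Jak3* had the most uniform direction of the members. It was lower in the library labelled KO in 6 of 6 classes and in 11 of 13 clusters, but the interval left out 0 in 1 of these 11. The log2 ratio was -0.57 (-0.82 to -0.32) in T cells, -0.36 (-1.10 to 0.37) in NK cells, -0.42 (-0.95 to 0.14) in DC and -0.44 in pDC, in addition to -0.46 in TAM/Mono, where gated cells gave -0.04. Its lowest ratio within the T cell class was in the cycling cluster 5, where it fell from 42.05 CPM (243 UMIs) to 22.2 CPM (51 UMIs), a log2 ratio of -0.91 (-1.38 to -0.48). In the other T cell clusters the ratios were -0.13, -0.20 and 0.08. *Stat5a* was higher in 6 of 6 classes and in 9 of 13 clusters, by 0.05 to 0.29 on the log2 scale over the classes, and each interval held 0. Its sign was the opposite in T cells gated by markers (-0.07), in TAM/Mono with 1 mix of clusters (-0.04) and in DC without doublets (-0.10). The classes and clusters share both libraries and are not replicates of the genotypes.

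*Stat4* moved in opposite directions between lymphocytes and DC. The log2 ratio was 0.25 (0.06 to 0.45) in T cells, 0.53 (0.14 to 0.93) in NK cells and -0.69 (-1.10 to -0.28) in DC. In T cells the interval left out 0 in cluster 2 alone of the 4 clusters (37.6 and 51.7 CPM, 0.47). In DC the difference was found in the mature DC-like cluster 12 (-0.53, -1.02 to -0.03), whereas the ratio in cluster 8 was -0.05 (-0.85 to 0.84) and the cycling cluster 13 held 1 and 11 *Stat4* UMIs (1.13, -1.14 to 7.07). Cluster 12 made up 18.5% of DC UMIs in the library labelled WT and 12.1% in the library labelled KO. With both libraries set to the same mix of clusters, the DC ratio was -0.30. With NK cells gated by at least 2 UMIs of *Ncr1*, *Klrb1c* and *Klre1* and no UMI of *Cd3d*, *Cd3e* or *Cd3g* (95 and 171 cells in place of 186 and 267), the log2 ratio was -0.0012, and the cause of this move was not tested.

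*Stat3* was lower in the library labelled KO in T cells (-0.24, -0.35 to -0.14), NK cells (-0.44, -0.75 to -0.14) and DC (-0.37, -0.58 to -0.16), and its log2 ratio in TAM/Mono was 0.06 (-0.07 to 0.19). Within the T cell clusters its ratios were -0.30, -0.10, 0.13 and 0.22, each with an interval that held 0. With both libraries set to the same mix of clusters the T cell value of *Stat3* was 0.01. *Jak2* was lower in DC (-0.39, -0.68 to -0.08), where its ratios were -0.36 in cluster 8, -0.17 in cluster 12 and 0.51 in cluster 13 (4 and 22 UMIs), each with an interval that held 0. *Jak1* was higher in T cells (0.15, 0.05 to 0.26), but its ratios in clusters 1, 2, 5 and 9 were -0.09, -0.02, -0.03 and 0.22, each with an interval that held 0, and with the same mix of clusters its T cell value was -0.01. The cells of these classes sit in different clusters in each library, as given above for clusters 1 and 12. In the *C1qa*-led cluster 10 *Jak1* stood at 75.3 and 93.4 CPM (0.31).

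Around the members, the wider JAK-STAT pathway was read from 96 other genes, listed as receptors, ligands, STATs, inhibitors and targets. In T cells 8 of 62 listed genes with enough UMIs were past the fold higher and 4 lower, beside 4.45% and 5.35% of all genes. The receptors *Il6ra* (6.84 and 18.6 CPM, log2 ratio 1.44), *Il6st*, the gp130 chain (7.32 and 14.4 CPM, 0.97), and *Il7r* were higher, as were the transcription factor gene *Junb* (477 and 840 CPM, 0.82) and *Socs7* (4.91 and 8.34 CPM, 0.76). Among the genes past it lower were *Tgm2* (7.40 and 2.05 CPM, -1.81), the cytokine gene *Il10* (10.9 and 5.06 CPM, -1.10) and the IL-12 receptor chain *Il12rb2* (11.3 and 7.38 CPM, -0.60). *Tgm2* encodes a transglutaminase of macrophages, which stood at 192 and 99.4 CPM in TAM/Mono. Of the 6 STAT3 targets with enough UMIs in T cells 3 were higher (*Socs3*, *Junb* and the member *Il4ra*) and 0 lower, of the 8 STAT4 targets 0 were higher and 2 lower (*Il12rb2* and *Il10*), and of the 7 STAT5 targets 0 were past the fold in either direction. The ratio of *Socs3* was below 0 in each of the 4 T cell clusters, against 0.63 in the class. The share of the naive-like cluster 1 among T cells moved with these values, and its part in them was not tested. In NK cells, beside 3.17% of all genes higher and 3.99% lower, 1 of 25 was past it higher (*Tnfaip3*, an inhibitor of NF-kappaB signalling, 40.3 and 70.9 CPM, 0.81) and 1 lower (the granzyme gene *Gzmb*, 1695 and 649.9 CPM, -1.38).

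In TAM/Mono 5 of 66 listed genes were past the fold higher and 11 lower, beside 4.13% and 4.85% of all genes. The 14 listed STAT6 targets of macrophages, of which 11 had enough UMIs, did not move one way. Of these, 4 were past the fold lower and 2 higher. *Ccl17* (8.26 and 0.56 CPM, -3.76, -5.54 to -2.62), *Pdcd1lg2* (21.02 and 8.15 CPM, -1.36) and *Tgm2* (192 and 99.4 CPM, -0.95) were among the lower, and *Chil3* (194 and 639.6 CPM, 1.72) and *Ccl24* (97.7 and 191 CPM, 0.97) were the higher. *Ccl17* is also among the leading genes of the mature DC-like cluster 12, and the part of DC RNA in its TAM/Mono value was not tested. The median over the 11 was 0.16, beside 0.05 for all genes. The make-up of the class moved with these values, as the *Cxcl3*-led cluster 3 held 30.5% of TAM/Mono UMIs in the library labelled WT and 12.3% in the library labelled KO, and the *Hp*- and *Ace*-led cluster 6, which has *Chil3* among its leading genes, held 9.27% and 20.3%. Its part in them was not tested. *Gzmb*, a granzyme gene of lymphocytes, was lower (68.0 and 30.4 CPM, -1.16), beside 1695 and 649.9 CPM in NK cells, and the part of lymphocyte RNA in its TAM/Mono and DC values was not tested. The other named genes were *Socs2* (-1.09), an inhibitor induced by STAT5, which was lower, and the interferon gamma receptor *Ifngr1* (149 and 250.2 CPM, 0.74), the adaptor *Sh2b3* (0.70) and *Socs6* (0.62), which were higher.

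In DC 3 of 53 listed genes were past the fold higher and 11 lower, beside 2.62% and 6.61% of all genes. *Stat2*, a factor of type I interferon signalling, stood at 52.1 and 29.9 CPM (log2 ratio -0.80, -1.18 to -0.42). Also lower were *Gzmb* (108.5 and 39.1 CPM, -1.47), *Tgm2* (-1.43), *Socs2* (100.4 and 52.9 CPM, -0.93) and *Il7r* (59.7 and 33.1 CPM, -0.85). *Furin* (22.7 and 59.6 CPM, 1.38), *Socs6* (0.75) and the mannose receptor *Mrc1* (14.7 and 24.3 CPM, 0.71) were higher. The mature DC-like cluster 12, which has *Socs2* among its leading genes, held a smaller share of DC UMIs in the library labelled KO, and its part in these values was not tested.

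Of the inhibitors, *Socs1* stood at 47.6 and 30.9 CPM in TAM/Mono (-0.62), 64.4 and 41.6 CPM in DC (-0.63) and 40.3 and 40.9 CPM in T cells (0.02). Within the T cell clusters *Socs1* was lower in the library labelled KO in cluster 1 (-0.55, -0.94 to -0.15), cluster 5 (-0.65, -1.17 to -0.17) and cluster 9 (-1.01, -1.52 to -0.53), and its ratio was 0.12 in cluster 2, while the mix of these clusters differed between the libraries. *Socs3*, induced by STAT3, stood at 38.5 and 59.7 CPM in T cells (0.63) and 171 and 193 CPM in TAM/Mono (0.17), and within T cells it was highest in the naive-like cluster 1, where it was lower in the library labelled KO (206 and 138 CPM, -0.58, -0.85 to -0.30). In clusters 2, 5 and 9 its ratios were -0.25, -0.11 and -0.34, each with an interval that held 0. *Cish*, induced by STAT5, was highest in the *Foxp3*-led cluster 9 (101 and 84.0 CPM) and differed little between the libraries in T cells (41.2 and 37.6 CPM). The phosphatase gene *Ptpn6* stood at 249.7 and 274 CPM in TAM/Mono and 146 and 138 CPM in T cells.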

How the data were processed

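Tumor-infiltrating immune cells of 2 pools of 10 tumors were profiled by scRNAseq (10x Genomics, 3′ V2 chemistry), with 1 library per genotype. The deposited values are natural log values: the authors counted UMIs with Cell Ranger (mm10 per the labels, versions not given in the sources used here), scaled each cell to 10000 and took the natural log of 1 plus the result. Dividing each cell's values, taken out of the log, by the lowest above 0 gave whole UMIs for 100% of values (within 0.01), and these UMIs were summed. Total UMIs were 28801253 in the library labelled WT and 23702018 in the library labelled KO. All cells passed the study's stated filter (at least 300 UMIs, at least 100 genes, under 5% mitochondrial), no doublets were removed, and 13 barcodes occurred in both libraries. No other per-sample column was left out.

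Cells were clustered with Seurat 5.3.0 in R 4.3.3 following the study's steps (variable genes, depth regressed out, 13 principal components). The resolution of 0.8 and the cutoffs that gave 599 variable genes, of which 1 member was left out, were chosen here. No annotation of cells was used. Classes were named from marker lists. Sums, intervals and figures were made with Python 3.11.15, numpy 2.4.6, scipy 1.17.1 and matplotlib 3.10.9. CPM carry exact Poisson intervals, shares exact Clopper-Pearson intervals, and log2 ratios (0.5 UMIs added to each sum) an exact conditional binomial interval, all at 95%. As each genotype has 1 library, nothing was tested. The log2 ratio with its interval and the recovery of whole UMIs were checked on simulated counts. These held counting error and no variation between clusters or libraries, and the other steps were not simulated.

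The members and lists were chosen with earlier results of these data known. Named genes were all members, their direct partners (Il4, Il13, Il2rg, Il13ra1, Stat2, Socs1, Socs3, Cish and Ptpn6), up to 5 listed genes per direction and class with the largest ratios past 1.5-fold at 100 or more UMIs, and the genes most alike over clusters. Tgm2 in TAM/Mono was named after its value was seen. Some listed genes are counted in the lists and are not reported here by name. Of 110 listed genes, 4 were not among the rows used here. Alternatives were other resolutions, no depth regression, doublets left out, cells weighted alike, thinned cells, 1 mix of clusters, marker gates and other thresholds.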

Additional observations from a re-analysis of the deposited data

Results flagged for a closer look

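The log2 ratio of *Stat4*, library labelled KO over library labelled WT, was 0.25 in T cells and 0.53 in NK cells and -0.69 in DC, so its sign differed between lymphocytes and DC. For *Il4ra* the ratio was 0.65 in T cells and -0.17 in TAM/Mono. In each of these classes the counting interval left out 0. In NK cells gated by markers the *Stat4* value was -0.0012, in DC set to 1 mix of clusters it was -0.30, and the *Il4ra* value in T cells set to 1 mix was 0.0695. With 1 library per genotype these differences between classes were not tested. The share of class UMIs held by the clusters in which these genes are high moved with the T cell value of *Il4ra* and the DC value of *Stat4*: the naive-like cluster 1 held 6.90% of T cell UMIs in the library labelled WT and 29.6% in the library labelled KO, and the mature DC-like cluster 12 held 18.5% and 12.1% of DC UMIs.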

How the results depend on the processing

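No paired analysis was possible because each genotype has 1 library, and for the same reason no replicate could be left out. The alternatives gave 550 values for 40 ratios between the libraries. Of these values 530 moved by less than their counting interval, 20 moved further and 512 kept their sign. The count of reversals of a value past the fold was 0. It could include only *Il4ra* in T cells and *Stat4* in DC, the ratios past the fold with an interval that left out 0. They gave 240 values for the 20 ratios of TAM/Mono over T cells, of which 30 moved further and 238 kept their sign. The gates between libraries, the count of cluster 7 with T cells and the removal of cells with 5 or more melanoma or erythroid UMIs were chosen after seeing the data. For *Il4ra* in T cells the log2 ratio between the libraries was 0.0695 with 1 mix of clusters and 0.34 in gated cells. *Il4ra* in TAM/Mono gave -0.32 in thinned cells and -0.42 in gated cells, *Jak3* in T cells gave -0.83 in thinned cells, and *Stat4* in NK cells gave -0.0012 in gated cells. The TAM/Mono over T cell ratio of *Il4ra* in the library labelled WT was 1.81 without doublets, 1.67 with cells weighted alike and 1.42 in gated cells. In the library labelled KO it was 0.93, 0.63 and 0.66 under these settings and 0.68 in thinned cells. In gated cells of the library labelled WT, *Stat4* gave -4.40 and *Stat6* 0.51. The members past the fold in T cells numbered 2 in place of 1 at resolution 0.4, without depth regression, without doublets, with cells weighted alike, in thinned cells and with cluster 7 counted in. They numbered 0 at resolution 1.2, with 1 mix of clusters and at a fold of 2. In NK cells they numbered 1 in place of 0 in thinned and in gated cells, in TAM/Mono 1 in place of 0 in gated cells, and in DC 0 in place of 1 with 1 mix of clusters and at a fold of 2. The share of all genes past the fold was not computed under these settings, so these counts of members stand without it. Cells with UMIs of both T cell and myeloid genes, treated as doublets there, made up 20.02% of the library labelled WT and 10.6% of the library labelled KO. In thinned or gated cells fewer UMIs or cells were used by construction, and the cause of the moves was not tested. The depth limits members under 100 UMIs in a class, of which NK cells had 6.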
